A study of Mus musculus with 11 samples.

Results

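The 10 genes followed here mark the resident macrophages of the liver. They are 10 of the 52636 genes listed for each liver and were compared in whole E15.5 mouse fetal livers of 4 genotypes. They were chosen by name, through the Ensembl identifiers of Clec4f, Folr2, Adgre1, Cd5l, Vsig4, Timd4, Marco, C1qa, Nr1h3 and Id3 in the GRCm38 annotation, and each symbol matched a single row. RNA sequencing covered 3 WT livers, 2 Tnfr1-/- livers (labelled Tnfr1 KO), 3 Casp8-/- Mlkl-/- livers (Casp8 Mlkl dKO) and 3 Casp8-/- Tnfr1-/- livers (Casp8 Tnfr1 dKO), none of them treated. The alleles are germline nulls kept on a C57BL/6N background, so every cell of the liver lacks the gene. Casp8-/- embryos are shown only with a second deletion, of Mlkl or of Tnfr1, and no liver lacks Casp8 or Mlkl alone.

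Kupffer cells are the macrophages that line the liver sinusoids, where they take up particles, bacteria, dying cells and iron-rich red cell debris from the blood. In the fetal liver, which is a blood-forming organ, macrophages of yolk sac and fetal monocyte origin settle early and acquire this identity in steps, with Clec4f among the late genes. Caspase-8 is the protease that starts death receptor apoptosis and restrains necroptosis, MLKL is the executioner of necroptosis, and TNFR1 is the main receptor for TNF. The question put to the data was which of the 10 identity genes were lost in livers without Casp8 and which stayed.

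Library totals lay between 23129212 and 35819339 uniquely mapped exonic reads. All 11 livers had abundant hepatocyte and erythroid transcripts, as a fetal liver should, but 2 stood apart. Casp8-/- Mlkl-/- replicate 1 had a summed level of the 8 hepatocyte markers of 233970 CPM (reads scaled to a common library size by TMM), against 51617 to 111120 CPM in the other livers. Casp8-/- Tnfr1-/- replicate 3 had 1647.5 CPM of striated muscle transcripts, against 14.9 to 36.1 CPM in the other livers, and was the only liver with Xist at a high level (3409 CPM, against at most 0.57). Its 7 hemoglobin genes summed to 171670 CPM, against 34642 to 61022 CPM in the other livers. The 111120 CPM of hepatocyte markers was also in this liver. Casp8 transcripts lay at 27.7 to 33.9 CPM in the 5 Casp8-intact livers and at 7.82 to 21.9 CPM in the 6 Casp8-deficient livers, and Mlkl at 0.73 to 1.22 CPM in the Casp8-/- Mlkl-/- livers and 3.68 CPM or more in all others. Tnfrsf1a, the gene of TNFR1, lay at 49.8 and 50.5 CPM in the livers labelled Tnfr1 KO and at 47.1 to 53.4 CPM in WT. Its gene-level count does not tell deleted from remaining exons, so it does not check that label, and the Tnfr1 genotypes are named as labelled throughout. Results that turn on either liver that stands apart are given with and without both.

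The set of RefSeq (GRCm38.p6) promoter windows used here, from 250 bases before to 50 after the start, covered 8 of the 10 genes. It had no entry for Adgre1 and C1qa. The windows of Clec4f and Vsig4, the pair with the largest differences, and of Marco, which was high in one Casp8-deficient genotype and low in the other, are shown because the members divide along these lines. Capitals mark a match to one of 4 motifs searched on both strands: GAGGAAG, the core that the macrophage factor PU.1 binds, CAGCTG (E-box), TGANTCA (AP-1) and GGCGCC (a GC-rich SMAD element). Clec4f lies at chr6:83656067-83656366, Vsig4 at chrX:96293389-96293688 and Marco at chr1:120504975-120505274, all on the minus strand and printed 5′ to 3′ in the direction of transcription.
Clec4f: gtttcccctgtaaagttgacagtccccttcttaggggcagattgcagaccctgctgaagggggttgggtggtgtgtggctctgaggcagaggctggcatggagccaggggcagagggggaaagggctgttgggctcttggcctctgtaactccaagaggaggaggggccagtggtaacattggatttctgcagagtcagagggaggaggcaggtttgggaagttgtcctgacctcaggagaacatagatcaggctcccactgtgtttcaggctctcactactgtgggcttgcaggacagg
Vsig4: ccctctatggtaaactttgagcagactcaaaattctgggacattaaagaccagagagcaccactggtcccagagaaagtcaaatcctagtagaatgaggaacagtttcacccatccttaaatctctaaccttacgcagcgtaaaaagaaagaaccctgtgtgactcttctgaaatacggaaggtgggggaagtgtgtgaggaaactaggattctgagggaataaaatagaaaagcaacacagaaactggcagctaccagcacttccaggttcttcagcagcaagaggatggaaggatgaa
Marco: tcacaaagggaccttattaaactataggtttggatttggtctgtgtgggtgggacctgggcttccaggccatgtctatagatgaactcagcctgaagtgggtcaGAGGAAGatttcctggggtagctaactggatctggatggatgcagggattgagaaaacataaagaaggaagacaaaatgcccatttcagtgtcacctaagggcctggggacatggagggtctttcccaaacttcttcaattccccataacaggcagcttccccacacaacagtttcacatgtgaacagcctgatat
The Clec4f and Vsig4 windows held none of the 4 motifs. The Marco window held the PU.1 core with its first base at -146. This core was present in 13.6% of all 32851 windows, CAGCTG in 16.3%, TGANTCA in 7.81% and GGCGCC in 11.9%. Cd5l, Id3 and 1 of the 2 Nr1h3 windows also held the PU.1 core, both Nr1h3 windows GGCGCC and 1 of the 2 Folr2 windows TGANTCA, while the Timd4 window held none. A match describes the letters of the window and not a bound site.

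Clec4f, a C-type lectin of mature Kupffer cells, fell in the Casp8-deficient livers taken as a group. It was measured at 13.7, 12.2 and 10.5 CPM in WT and at 13.9 and 11.4 CPM in Tnfr1-/- livers. Its level was 5.47, 0.20 and 0.73 CPM in Casp8-/- Mlkl-/- livers and 1.16, 0.55 and 0.11 CPM in Casp8-/- Tnfr1-/- livers. All 6 Casp8-deficient livers lay below all 5 Casp8-intact livers, which held for no other member and for 1.35% of the genes tested. Averaged over both Casp8-deficient genotypes, Clec4f fell by 3.41 ± 0.72 on the log2 scale (SE; adjusted p = 0.0412 by edgeR) and was the only member called, beside 0.139% of all genes called lower and 2.13% called higher. For the reverse order, with all 6 above all 5, the share of genes was 3.47%, and no member was among them. The call was lost in 7 of the 11 fits that left out 1 liver (adjusted p up to 0.198). Without both livers that stand apart Clec4f was at -4.32 ± 0.23 (adjusted p = 1.87e-08), with 9.82% of genes called lower, and was not the only member called. Vsig4 (-4.97 ± 0.45), Folr2 (-1.20 ± 0.16) and Cd5l (-0.79 ± 0.10) were called lower too. Adgre1 (0.34 ± 0.06) and Nr1h3 (0.58 ± 0.08) were called higher, as were 13.1% of genes. Against WT alone Clec4f fell by 4.23 ± 1.04 in Casp8-/- Tnfr1-/- livers (adjusted p = 0.0437). In Casp8-/- Mlkl-/- livers it was -2.52 ± 0.94 (adjusted p = 0.875) with all livers, and -4.78 ± 0.35 (adjusted p = 5.99e-06) once both were left out. The highest Casp8-deficient value, 5.47 CPM, was that of the Casp8-/- Mlkl-/- liver with the high hepatocyte transcripts, and the part of that excess in the value was not tested.

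Vsig4, the complement receptor CRIg that captures opsonised bacteria, was the lowest member in WT. Its counts were 38, 22 and 38 reads in WT, 85 and 68 in Tnfr1-/-, 110, 1 and 4 in Casp8-/- Mlkl-/- and 0, 2 and 0 in Casp8-/- Tnfr1-/- livers. Apart from the same Casp8-/- Mlkl-/- replicate 1, which was above every other liver, the Casp8-deficient livers lay below the Casp8-intact ones. Pooled over livers, the WT level was 51.7 times that of Casp8-/- Tnfr1-/- livers (95% exact interval 13.9 to 433, counting error only). The fitted log2 difference, -5.46 ± 1.79, depends on the prior count and did not pass the test (adjusted p = 0.104). Without both livers that stand apart Vsig4 fell in Casp8-/- Tnfr1-/- (-5.13 ± 0.70, adjusted p = 6.57e-05) and in Casp8-/- Mlkl-/- livers (-3.89 ± 0.59, adjusted p = 0.00289). With Casp8-/- Mlkl-/- replicate 1 kept, the second of these was 0.24 ± 1.18.

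Folr2, the folate receptor of resident tissue macrophages, fell in Casp8-/- Tnfr1-/- livers against each of the other genotypes. Its level was 4.26, 4.49 and 4.97 CPM in WT, 4.65 and 3.65 CPM in Tnfr1-/- and 10.4, 4.59 and 5.85 CPM in Casp8-/- Mlkl-/- livers. The 3 Casp8-/- Tnfr1-/- livers, at 0.67, 0.69 and 0.74 CPM, lay close together and below the other 8. Of the members it had the firmest difference: -2.70 ± 0.33 against WT (adjusted p = 0.00158), -2.57 ± 0.35 against Tnfr1-/- (adjusted p = 0.00504) and -3.31 ± 0.33 against Casp8-/- Mlkl-/- (adjusted p = 0.00135). It was also the only member called against Tnfr1-/-, where 0.122% of genes were called lower and 2.05% higher. That call was lost without Tnfr1-/- replicate 1 (adjusted p = 0.0932). Without both livers that stand apart 6 members were called lower against Tnfr1-/- (Clec4f, Folr2, Vsig4, Cd5l, Timd4 and Marco) and Nr1h3 higher, beside 9.3% of genes called lower and 13.9% higher. The predicted genes Gm10602 and Gm45319 overlap Folr2 on the other strand, and whether the counting used strand is not given in the sources used here.

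Timd4, a receptor for phosphatidylserine on dying cells, and Marco, a scavenger receptor for bacteria, lay on opposite sides of WT in the 2 Casp8-deficient genotypes. Timd4 was 16.0, 17.6 and 15.2 CPM in WT and 15.9 and 13.9 CPM in Tnfr1-/- livers, 62.8, 30.7 and 32.6 CPM in Casp8-/- Mlkl-/- and 9.88, 6.26 and 1.77 CPM in Casp8-/- Tnfr1-/- livers. Marco was 71.9, 62.5 and 49.1 CPM in WT, 64.8 and 48.7 CPM in Tnfr1-/-, 240.0, 90.7 and 114 CPM in Casp8-/- Mlkl-/- and 28.8, 21.9 and 13.4 CPM in Casp8-/- Tnfr1-/- livers. For both genes the 3 groups, taken as Casp8-/- Mlkl-/-, Casp8-intact and Casp8-/- Tnfr1-/-, did not overlap. The same held for Adgre1, whose values follow. The share of all genes tested that lay in this order was not taken, so the order cannot be called particular to these genes.

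Adgre1, which encodes the F4/80 antigen, and Cd5l, a secreted macrophage survival factor, were also lowest in Casp8-/- Tnfr1-/- livers. Adgre1 was 57.4, 54.8 and 46.3 CPM in WT, 49.9 and 46.3 CPM in Tnfr1-/-, 170, 105 and 100 CPM in Casp8-/- Mlkl-/- and 40.2, 38.5 and 13.1 CPM in Casp8-/- Tnfr1-/- livers. Cd5l was 162, 140 and 127 CPM in WT, 158 and 148 CPM in Tnfr1-/-, 318, 91.2 and 127 CPM in Casp8-/- Mlkl-/- and 75.3, 57.5 and 13.6 CPM in Casp8-/- Tnfr1-/- livers. These and Folr2, 5 members in all with Timd4 and Marco, lay lower in all 3 Casp8-/- Tnfr1-/- livers than in any of the other 8, as did 3.32% of the genes tested. No member lay higher in all 3, as 7.43% of genes did.

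Against WT, 3 members were called lower in Casp8-/- Tnfr1-/- livers: Clec4f, Folr2 and Marco (-1.51 ± 0.39, adjusted p = 0.0495), beside 0.702% of all genes called lower. None was called higher by edgeR, DESeq2 or limma-voom, and 0 members were higher at an unadjusted p under 0.05 by edgeR, whereas 5.1% of all genes were called higher. The Clec4f and Marco calls were each lost in 8 of the 11 fits that left out 1 liver (adjusted p up to 0.126 and 0.166), and the Folr2 call in none. Cd5l (-1.55 ± 0.58, adjusted p = 0.143), Timd4 (-1.43 ± 0.49, adjusted p = 0.117) and Adgre1 (-0.78 ± 0.37, adjusted p = 0.221) did not pass. The median over the 10 members was -1.47, against -0.002 over all genes tested. With both livers that stand apart left out, 7 members were called lower, with 13.5% of genes called lower, namely Clec4f, Folr2, Vsig4, Marco, Cd5l (-1.09 ± 0.14), Timd4 (-0.99 ± 0.16) and Adgre1 (-0.41 ± 0.09).

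Against Casp8-/- Mlkl-/- livers, 4 members fell in Casp8-/- Tnfr1-/- livers: Folr2, Marco (-2.79 ± 0.40, adjusted p = 0.00868), Timd4 (-2.80 ± 0.51, adjusted p = 0.0283) and Adgre1 (-2.03 ± 0.38, adjusted p = 0.0309), beside 0.116% of genes called lower and 1.54% higher. Without both livers that stand apart these were -2.91, -1.997, -1.95 and -1.37, and Cd5l (-0.70 ± 0.15, adjusted p = 0.00476) and C1qa (-0.51 ± 0.12, adjusted p = 0.0108) were called too, 6 members in all, beside 6.1% of genes called lower and 12% higher. The Timd4 call was lost in 8 and the Adgre1 call in 7 of the 11 fits that left out 1 liver. Clec4f was not called between the 2 genotypes (-1.71 ± 0.99, adjusted p = 0.44), and its sign turned to 1.005 (adjusted p = 0.186) without both livers. Casp8-/- Tnfr1-/- replicate 3, the liver with muscle transcripts, was the lowest of its group for Clec4f, Adgre1, Cd5l, Timd4, Marco, C1qa and Nr1h3; the part of other tissue in these values was not tested.

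**Figure D1:**
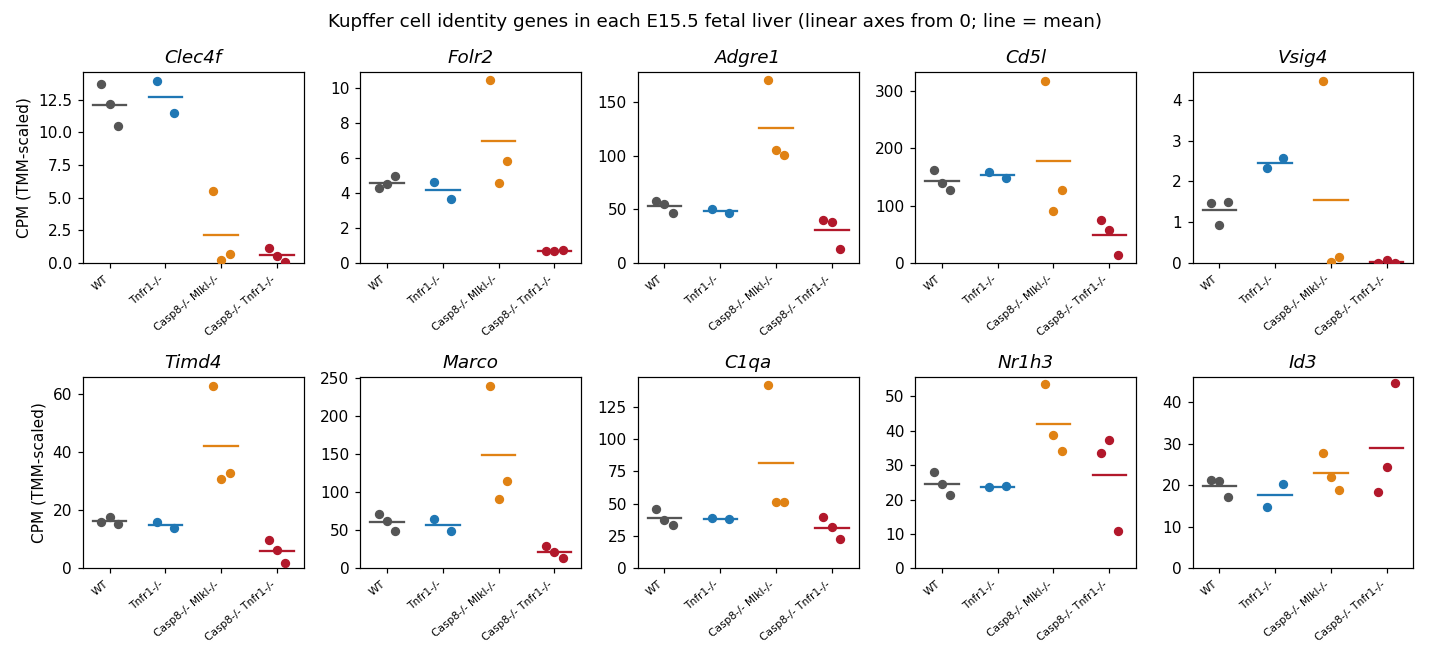
CPM of each gene in each liver on linear axes that start at 0, with 1 point a liver and a line at the group mean. Clec4f is below the Casp8-intact livers in all 6 Casp8-deficient livers, Folr2 is low in the 3 Casp8-/- Tnfr1-/- livers, and Timd4, Marco and Adgre1 are above WT in Casp8-/- Mlkl-/- and below it in Casp8-/- Tnfr1-/- livers.

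No change was called by edgeR for the other 3 members, C1qa, Nr1h3 and Id3, with all livers. The same was true of Vsig4 and Cd5l. DESeq2 called C1qa lower in Casp8-/- Tnfr1-/- than in Casp8-/- Mlkl-/- livers (-1.384, adjusted p = 0.0158), as did limma-voom with quality weights (-0.558, adjusted p = 0.0196). With quality weights Nr1h3 was called higher in Casp8-/- Tnfr1-/- livers against WT (0.469, adjusted p = 0.00776). C1qa, a chain of complement C1q, was 45.9, 37.6 and 33.4 CPM in WT and 39.4, 32.2 and 22.9 CPM in Casp8-/- Tnfr1-/- livers, which overlapped (-0.31 ± 0.38, adjusted p = 0.616). It was 38.8 and 38.0 CPM in Tnfr1-/- and 142, 51.4 and 51.6 CPM in Casp8-/- Mlkl-/- livers. Nr1h3, the nuclear receptor LXR-alpha that maintains Kupffer cell identity, was 27.9, 24.6 and 21.4 CPM in WT, 23.7 and 23.8 CPM in Tnfr1-/-, 53.5, 38.8 and 34.1 CPM in Casp8-/- Mlkl-/- and 33.4, 37.2 and 10.8 CPM in Casp8-/- Tnfr1-/- livers. It was the only member called higher in Casp8-/- Tnfr1-/- livers once both livers that stand apart were left out (0.54 ± 0.11 against WT, adjusted p = 0.00147, with 17.8% of genes called higher); with all livers it was 0.14 ± 0.38 (adjusted p = 0.823). Nr1h3 overlaps Gm13783 on its own strand and Gm23390 on the other. Id3, an inhibitor of helix-loop-helix factors needed for Kupffer cell development, was 21.3, 21.1 and 17.2 CPM in WT, 14.8 and 20.3 CPM in Tnfr1-/-, 27.8, 21.9 and 19.0 CPM in Casp8-/- Mlkl-/- and 18.4, 24.3 and 44.6 CPM in Casp8-/- Tnfr1-/- livers. Its highest value was in the Casp8-/- Tnfr1-/- liver with muscle transcripts, and other cells of the liver also express Id3.

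No member was called in Casp8-/- Mlkl-/- livers against WT by edgeR, DESeq2 or limma-voom, and over all genes 0% were called lower and 0.0058% higher. At an unadjusted p under 0.05 by edgeR, 1 member was lower (Clec4f) and 4 were higher (Adgre1, Marco, Timd4 and C1qa). The share of all genes at that p was not taken. With 9 livers in the fit, both that stand apart left out, 2 were called lower, Clec4f and Vsig4, with 3.18% of genes, and 4 higher, with 3.23% of genes: Adgre1 (0.96 ± 0.08, adjusted p = 3.7e-05), Timd4 (0.96 ± 0.14, adjusted p = 0.0024), Marco (0.74 ± 0.16, adjusted p = 0.0138) and Nr1h3 (0.57 ± 0.11, adjusted p = 0.00855). These 4 were above every WT liver in each of the 3 Casp8-/- Mlkl-/- livers, and so was C1qa. The share of all genes that lay so was not taken, so this cannot be called particular to the members. Tnfr1-/- and WT livers differed in no member by edgeR, DESeq2 or limma-voom, nor at an unadjusted p under 0.05 by edgeR, where 0% of genes were called in either direction; the log2 differences ran from -0.18 (Id3) to 0.92 (Vsig4).

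**Figure D2:**
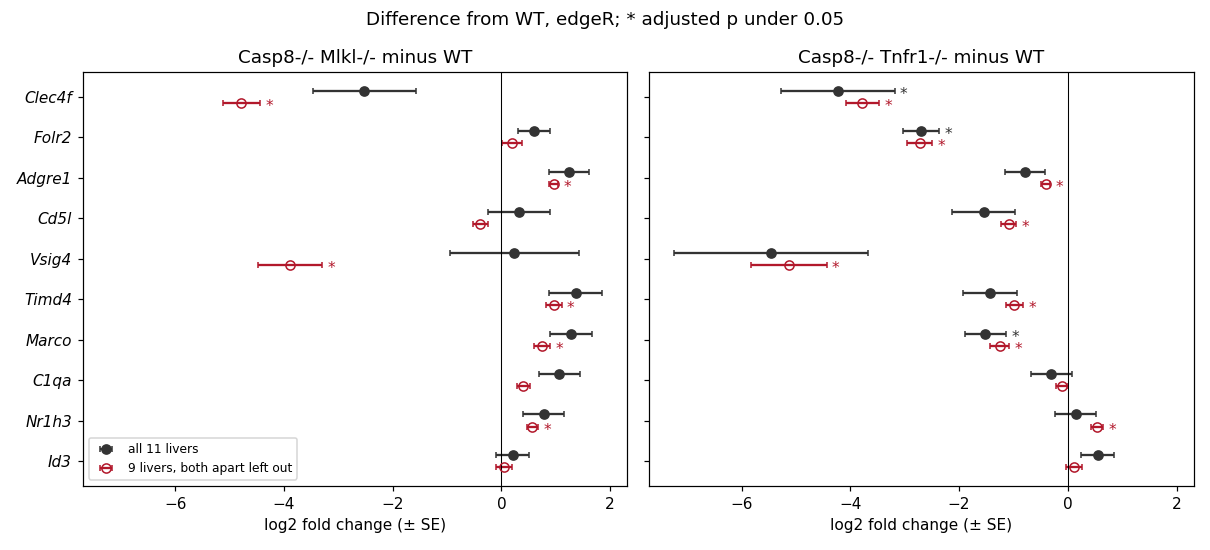
Log2 fold change with its SE for each gene against WT in both Casp8-deficient genotypes, with all 11 livers (filled) and with both livers that stand apart left out (open); an asterisk marks an adjusted p under 0.05. Leaving out 2 livers narrows the errors and turns Vsig4 in Casp8-/- Mlkl-/- from 0.24 to -3.89, while Folr2 in Casp8-/- Tnfr1-/- stays near -2.7.

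Levels per length (CPM per kb of the deposited width) ordered the genes within a liver. In WT Cd5l led at 70.2 ± 8.7 (SD, n = 3), followed by C1qa (37.5) and Marco (31.8), which overlapped, Adgre1 (16.3) and Id3 (15.6), which overlapped, and then Nr1h3 (11.5), Timd4 (7.48), Clec4f (4.90), Folr2 (3.46) and Vsig4 (0.903), each apart from the next. Tnfr1-/- livers had the same order of means. In Casp8-/- Mlkl-/- livers Clec4f (0.864) took last place, below Vsig4 (1.08), though the livers overlapped. In Casp8-/- Tnfr1-/- livers C1qa (30.3) was above Cd5l (24.0) and Id3 (22.8), with overlap, and Folr2 (0.530), Clec4f (0.246) and Vsig4 (0.016) were last.

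In whole liver, fewer macrophages and less RNA of a gene per macrophage cannot be told apart, so each member was also set against 10 genes of macrophages at large (Csf1r, Cd68, Lyz2, Fcgr1, Fcgr3, Aif1, Tyrobp, Mertk, Itgam and Cd14) in the same liver. Of these 10, 6 were called higher in Casp8-/- Tnfr1-/- livers against WT and none lower; Cd14 (3.51 ± 0.57, adjusted p = 0.00723) and Itgam (2.92 ± 0.52, adjusted p = 0.0116) moved most. Monocytes and neutrophils also express several of them. Csf1r, the receptor for the macrophage growth factor, was 114, 113 and 87.0 CPM in WT and 98.6, 106 and 73.8 CPM in Casp8-/- Tnfr1-/- livers, which overlapped. Averaged on the log2 CPM scale, these 10 genes were themselves 1.14 higher in Casp8-/- Tnfr1-/- livers than in WT and 0.60 higher in Casp8-/- Mlkl-/- livers, so a member with a steady level lies lower on this relative scale. The 0.60 turned on Casp8-/- Mlkl-/- replicate 1, where the average was 5.594. In replicates 2 and 3 it was 4.623 and 4.634, against a WT mean of 4.355. With the WT mean set to 0, Folr2 averaged -3.72, Vsig4 -5.02, which rests on the prior count, and Clec4f -5.67 in Casp8-/- Tnfr1-/- livers. These went beyond the shift of the list in all 3 livers. So did Cd5l (mean -3.01), Timd4 (-2.88), Marco (-2.70) and Adgre1 (-2.08). Without replicate 3 these were -2.22, -2.15, -2.37 and -1.53. C1qa averaged -1.47, Nr1h3 -1.18 and Id3 -0.68, near the shift of the list. A value beyond that shift largely restates a CPM level below WT. It does not tell fewer macrophages from less RNA of the gene in each. Without replicate 3, Nr1h3 was at -0.58 and Id3 at -1.01, and Id3 in replicate 3 was at -0.02, within the WT range. In Casp8-/- Mlkl-/- livers Clec4f was at -2.37, -5.72 and -4.20, and Vsig4 at 0.52, -3.99 and -2.85, so that the Vsig4 mean was -2.10 with and -3.42 without replicate 1. Timd4 averaged 0.69, Adgre1 0.61 and Marco 0.57 there, and 0.69, 0.69 and 0.48 without that liver.

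**Figure D3:**
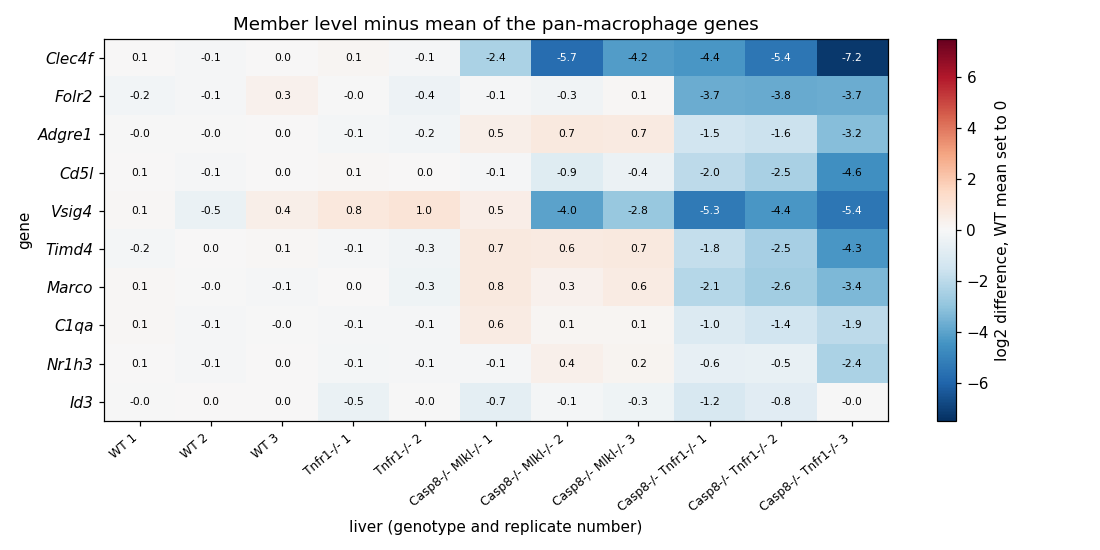
Log2 level of each gene minus the mean of the 10 pan-macrophage genes in the same liver, with the mean of the WT livers set to 0; columns are livers and blue is lower. Clec4f is at -2.365 or below in all 6 Casp8-deficient livers, and Folr2 lies between -3.75 and -3.70 in the 3 Casp8-/- Tnfr1-/- livers.

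Markers of other myeloid cells moved with the Casp8-/- Tnfr1-/- genotype. Of 8 neutrophil genes 4 were called higher against WT, and their summed level was 5256 to 14519 CPM against 1124 to 1633 CPM. Of 8 monocyte genes 4 were called higher, among them Plac8 (1.92 ± 0.17, adjusted p = 2.94e-04), with sums of 324 to 420 CPM against 98.8 to 165 CPM. Of 6 genes of recruited or injury-associated macrophages 3 were called higher: Gpnmb (5.85 ± 0.42, adjusted p = 8.48e-05), Mmp12 (7.47 ± 0.55, adjusted p = 9.02e-05) and Spp1 (4.96 ± 1.13, adjusted p = 0.0331). No defining marker of these 3 lists was at 0 in any liver. Their part in the falls of the members was not tested.

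Of 13 further Kupffer cell genes 1 was called lower and none higher in Casp8-/- Tnfr1-/- livers against WT by edgeR, with a median log2 difference of 0.08. At an unadjusted p under 0.05, 4 were lower and 1 higher. The called gene was Fcna, the lectin ficolin-A, at 54.3, 52.1 and 42.0 CPM in WT and 13.8, 11.8 and 9.23 CPM in Casp8-/- Tnfr1-/- livers (-2.09 ± 0.29, adjusted p = 0.00333). C6, a terminal complement component, was at -2.87 ± 0.93 (adjusted p = 0.101) and was called only against Casp8-/- Mlkl-/- livers. Slc11a1 went the other way, at 0.84 ± 0.29 (adjusted p = 0.114). Cd207, the lectin langerin, was at -2.24 ± 0.79 (adjusted p = 0.124). Of 8 genes of iron and heme handling and of erythroblastic islands none was called by edgeR (1 at an unadjusted p under 0.05). Slc40a1, the iron exporter ferroportin, was at -0.69 ± 0.25 (adjusted p = 0.127) and Hmox1 at 0.51 ± 0.30 (adjusted p = 0.31). Of 11 macrophage transcription factors only Spi1, which encodes PU.1, was called, at 1.52 ± 0.26 (adjusted p = 0.00888). Of 7 LXR target genes 1 was called, Mylip, a ligase that degrades the LDL receptor (-0.53 ± 0.13, adjusted p = 0.0384). Abcg1 of that list was at 0.72 ± 0.20 (adjusted p = 0.0709). Of 9 niche signals 8 were tested and 1 was called, Csf1, the macrophage growth factor: it was 29.7, 30.4 and 28.1 CPM in WT and 69.9, 66.9 and 68.8 CPM in Casp8-/- Tnfr1-/- livers (1.22 ± 0.11, adjusted p = 3.46e-04). None of the 8 erythroid, 8 hepatocyte, 8 striated muscle, 7 hemoglobin or 5 megakaryocyte genes was called by edgeR (3, 1, 8, 1 and 0 of them, in that order, at an unadjusted p under 0.05), and of 8 endothelial genes Fcgr2b and Pecam1 were called higher.

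By the mean absolute difference of log2 CPM, each gene centred on its mean over the 11 livers, the genes most like Clec4f were Vsig4 (0.845), Gm13710 (1.11), Ces1g (1.13), Ces1e (1.16) and Slc5a4b (1.25). Ces1g and Ces1e encode carboxylesterases, and their close family may share reads. The genes most like Timd4 were Adgre4 (0.232), Marco (0.247), Pigz (0.302), Ccdc148 (0.322) and Adgre1 (0.328). The Clec4f values thus lay farther from their nearest gene than those of Timd4. Adgre4, a relative of F4/80, was 19.7, 14.0 and 11.4 CPM in Casp8-/- Mlkl-/- livers, 5.61, 6.29 and 4.10 CPM in WT and 2.32, 2.24 and 0.63 CPM in Casp8-/- Tnfr1-/- livers.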

How the data were processed

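The 10 genes, the comparison lists and the 2 livers left out in an alternative were chosen with earlier results of these data known. The authors aligned single-end 50-base reads to GRCm38 with GSNAP and deposited, for each liver, raw counts of uniquely mapped reads over the exons of each gene, a width in bases and RPKM values. The counts were tested; the RPKM values were used only to check the deposited counts and the width. The sequencer and library kit differ between the labels and the study's methods, and the strand of counting is not given in the sources used here. Genes were named from GENCODE M21.

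Genes were kept by filterByExpr (minimum count 10; 17243 genes), scaled by TMM and fitted over all 4 genotypes by edgeR 4.0.16 glmQLFit and glmQLFTest (R 4.3.3), with Benjamini-Hochberg adjustment over all genes and a threshold of 0.05. A prior count of 2 entered log2 CPM values. Values are log2 fold changes ± SE. The scripts were tested on simulated data. Named genes were all members, at most 4 genes of each other list by smallest adjusted p against WT, the 5 genes most like Clec4f and Timd4, and the targeted genes. Alternatives were DESeq2 (1.42.0), limma-voom (limma 3.58.1) with and without quality weights, other scalings and filters, a replicate block, pairs of genotypes, and left-out livers. Nothing in the labels says that livers of a group came from separate litters, so p-values measure the spread between these samples. No pair of livers was a duplicate (chi-square at least 6.45 per degree of freedom). Replicate numbers did not pair the livers: deviations of same-numbered livers correlated at a median of -0.024 (-0.297 to 0.275, 15 pairs). Reads carry no molecular identifiers, so counting intervals cover counting error only.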

Additional observations from a re-analysis of the deposited data

Results flagged for a closer look

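In the 6 Casp8-deficient livers a single liver lay far from the others in 5 of the 10 genes, by the gap to its neighbour as a share of the whole range (Dixon's 95% limit; chance alone sets apart about 1 in 20 groups, and 20 groups were examined). Casp8-/- Mlkl-/- replicate 1 was highest for Clec4f (5.47 CPM), Cd5l (318 CPM), Vsig4 (4.46 CPM) and C1qa (142 CPM). Casp8-/- Tnfr1-/- replicate 3 was highest for Id3 (44.6 CPM). These 6 livers hold 2 genotypes.

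The difference from WT was not the same in both Casp8-deficient genotypes for 4 genes, by the direct contrast of Casp8-/- Tnfr1-/- and Casp8-/- Mlkl-/- livers in edgeR: Adgre1 (log2 difference -2.03), Marco (-2.79), Folr2 (-3.31) and Timd4 (-2.80).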

How the results depend on the processing

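Of 583 log2 differences of members under the alternatives, 506 kept sign and call, 9 lost a call, 56 gained one and 12 turned sign. In the fits that left out 1 liver these numbers were 588, 39, 10 and 23 of 660. Below, pairs of counts are members called lower and higher in Casp8-/- Tnfr1-/- against WT, then against Tnfr1-/-, in Casp8-/- Mlkl-/- against WT, and in Casp8-deficient against Casp8-intact livers. Without both livers that stand apart they were 7 and 1, 6 and 1, 2 and 4, and 4 and 2, and with limma-voom quality weights 7 and 1, 6 and 1, 2 and 4, and 4 and 2. DESeq2 called 5 lower against WT, 3 against Tnfr1-/- and 2 in Casp8-deficient livers. Against Tnfr1-/-, limma-voom and no filter on low counts each called 2 lower. The share of all genes called was taken only for the main fit and the fit without both livers. For genes lower in Casp8-/- Tnfr1-/- against WT it was 0.702% and 13.5%. Counts of members from other fits, here and below, therefore cannot be set against a general rise or fall in calls. With only the genotypes compared in the fit, edgeR called 0 lower in Casp8-/- Tnfr1-/- against Tnfr1-/-, 0 against Casp8-/- Mlkl-/- and 3 against WT. Such a fit holds fewer livers. The cause of the shifts in these counts was not tested.

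Signs turned as follows. In Casp8-/- Mlkl-/- against WT, Vsig4 was -2.205 by limma-voom, -3.381 with quality weights and -3.889 without both livers, Cd5l -0.292 with quality weights and -0.39 without both livers, and Id3 -0.012 with quality weights. Clec4f between the Casp8-deficient genotypes was 0.731 with quality weights and 1.005 without both livers, and Timd4 in Casp8-deficient livers was -0.106 by limma-voom. A replicate block gave the same counts of calls as the fit without it in all 6 comparisons; the numbers did not pair the livers. Under the block Vsig4 in Casp8-/- Mlkl-/- livers was -0.753, and Clec4f and Cd5l in Tnfr1-/- against WT were -0.33 and -0.22.

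Leaving out 1 liver at a time, the members called lower ranged from 1 to 4 in Casp8-/- Tnfr1-/- against WT, 0 to 4 against Tnfr1-/-, 2 to 4 against Casp8-/- Mlkl-/- and 0 to 3 in Casp8-deficient livers, where 0 to 1 was called higher. The 4 against WT came without Casp8-/- Mlkl-/- replicate 1 or Casp8-/- Tnfr1-/- replicate 1, the 4 against Tnfr1-/- and the 3 in Casp8-deficient livers without Casp8-/- Mlkl-/- replicate 1, and the 1 called higher without Casp8-/- Tnfr1-/- replicate 3. Log2 differences whose sign turned ranged, in Casp8-/- Mlkl-/- against WT, from -0.388 to 0.632 for Cd5l and -3.851 to 0.819 for Vsig4, the lowest of each without Casp8-/- Mlkl-/- replicate 1. Between the Casp8-deficient genotypes they ranged from -2.516 to 0.519 for Clec4f and -0.097 to 0.6 for Id3, and for Nr1h3 from -0.135 to 0.528 against WT and -0.086 to 0.575 against Tnfr1-/-. In Casp8-deficient livers they were -0.33 to 0.064 for Marco and -0.25 to 0.246 for Timd4. In Tnfr1-/- against WT they were -0.084 to 0.202 for Clec4f, -0.327 to 0.024 for Folr2, -0.331 to 0.083 for Marco, -0.116 to 0.115 for C1qa, -0.139 to 0.051 for Nr1h3 and -0.423 to 0.028 for Id3. Depth limits Vsig4 most, with 2 reads over the 3 Casp8-/- Tnfr1-/- livers. Relative levels without both livers that stand apart were added after seeing the data.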
